A study of Mus musculus with 12 samples.

Results

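Freshly dissected superior cervical ganglion (SCG) tissue was compared, across all genes measured, with SCG cells grown on a flat two-dimensional (2D) substrate. The comparison used 8 of the 12 arrays of the study, 4 of tissue and 4 of 2D culture, each labelled as a biological replicate, and the other 4 arrays held cells grown in three-dimensional (3D) polymer scaffolds, whose levels are given only for reference. Each gene was read from its brightest probe set (by the mean of all 12 arrays), which gave 18193 genes. All RNA came from CD1 mice labelled as 21 days old, although the study's methods call the animals neonatal. For both cultures the ganglia were dissociated enzymatically, and the cells were plated on collagen-coated surfaces in a serum-containing medium with nerve growth factor. The 2D substrate is a polystyrene Petri dish in the labels and a glass-bottomed dish in the methods. Tissue went to RNA extraction without culture, so dissociation, time in the dish, medium, serum and the loss or gain of cell types cannot be told apart in this contrast. In bulk RNA, fewer cells of a type and less RNA per cell cannot be told apart either.

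The SCG holds sympathetic neurons, which make noradrenaline and receive cholinergic input through nicotinic receptors. Each neuron is wrapped by satellite glia, and the ganglion also contains Schwann cells, fibroblasts, macrophages, blood vessels and a perineurial capsule. Dissociation cuts every axon, and axotomised neurons and their glia are known to switch on injury factors, cytokines and growth factors. Cells that divide in the dish are mainly glia and fibroblasts, since sympathetic neurons have left the cell cycle.

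The neuronal markers of the labelled tissue were present in both groups. The noradrenaline-making enzyme Dbh read 13.29, 12.10, 10.79 and 13.78 on tissue replicates 1 to 4 and 12.99, 12.83, 12.52 and 11.41 on the 2D replicates (log2 units of the normalised signal, as are all levels below). The arrays were not of equal quality. The gap between the 3′ and 5′ control probe sets of Gapdh, which widens when RNA is broken or copied short, was 3.45 on tissue replicate 2 and 3.05 on tissue replicate 3, against 0.36 to 1.27 on the other arrays of the comparison. The same gap for Actb was 3.55 and 4.21 on those arrays and at most 2.21 on the others. Tissue arrays also correlated less with each other (r from 0.900 to 0.990) than 2D arrays did (0.972 to 0.993). Each list's count of called genes is therefore given again where it differs by 1.5 times or more without tissue replicates 2 and 3 or with 1 array left out, and the part of RNA quality in the differences was not tested. In a direction in which a list had no called member, these settings added at most 1 call, except for 2 lower fibroblast genes and up to 4 higher lymphocyte genes. List medians below use all arrays of the comparison, and some moved without tissue replicates 2 and 3. Medians rose for collagens (−1.51 to −0.73), basement membrane genes (−0.998 to −0.38), satellite glia (−0.78 to −0.39) and NRF2 targets (−1.86 to −1.26). They also rose for nicotinic subunits (1.12 to 1.91) and neurofilament and microtubule genes (0.29 to 0.77). Among those that fell were lymphocytes (0.63 to 0.20) and skeletal muscle (2.10 to 1.755).

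**Figure D1:**
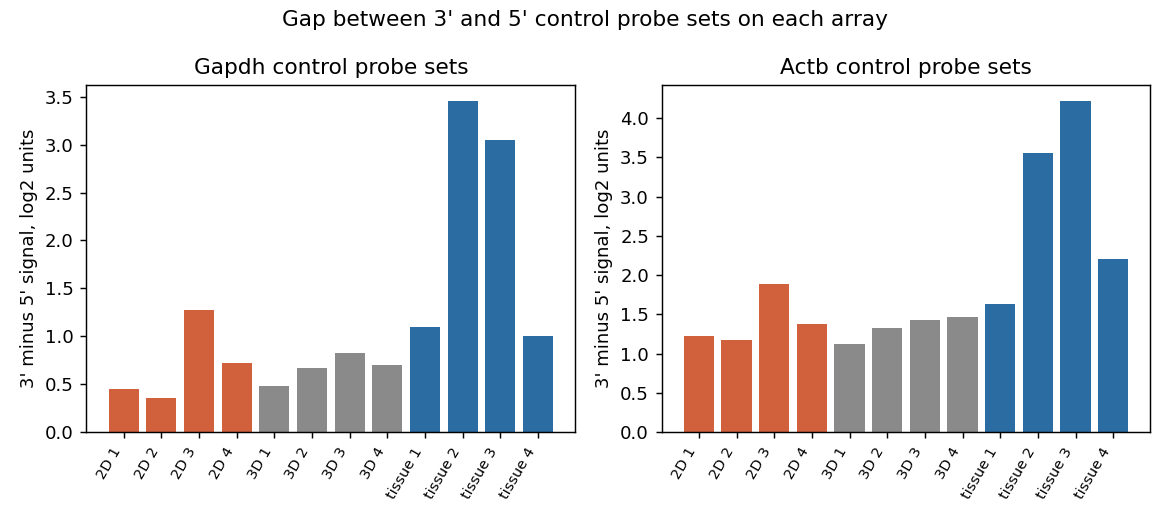
Gap between the 3′ and 5′ control probe sets of Gapdh (left) and Actb (right) in log2 units, 1 bar per array, coloured by group (orange 2D, grey 3D, blue tissue). Tissue replicates 2 and 3 had Gapdh gaps of 3.45 and 3.05.

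Of the 18193 genes, 1796 (9.87%) were higher and 2597 (14.3%) were lower in tissue than in 2D culture at an adjusted p under 0.05 (limma, adjusted over all 45037 probe sets). The median difference over all genes was 0.03 log2 units. Without tissue replicates 2 and 3 the counts were 1839 (10.1%) and 2229 (12.3%). Leaving out 1 array at a time gave 868 to 2070 higher and 1475 to 3142 lower genes, with both counts reduced by more than 1.5 times without tissue replicate 2 (894 and 1475), 2D replicate 1 (1082 and 1706), 2D replicate 2 (868 and 1555) or 2D replicate 4 (1010, 5.55%, and 1564, 8.60%). The share of calls that were higher in tissue, 40.9%, depended on the scaling: it was 61.6% with arrays centred on their bright probe sets, which moved the median of all genes to 0.31, and 52.3% after cyclic loess. Shares of a gene list below are read against 9.87% and 14.3%, and no list was tested as a set.

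The gene furthest below its 2D level in tissue was Il6, a cytokine released after nerve injury. Il6 read 11.24, 11.24, 12.02 and 11.45 on the 2D arrays and 3.75, 3.58, 4.24 and 3.85 on the tissue arrays. It was 198-fold higher in 2D culture (7.63 ± 0.22 log2 units, SE, n = 4 per group, adjusted p = 1.65e-06), and the groups lay far apart. Among the 15 genes furthest below 2D were the chemokines Cxcl5 (146-fold higher in 2D), Cxcl2 (75.6-fold), Ccl2 (73.0-fold) and Cxcl3 (39.7-fold), which draw neutrophils and monocytes. Growth factors formed another part of the 15, with Fgf5 85.3-fold, Gdnf 53.9-fold and Ereg 43.6-fold higher in 2D. The metalloproteinase inhibitor Timp1 was 74.3-fold higher, the inducible prostaglandin synthase Ptgs2 52.4-fold, the soluble pattern receptor Ptx3 45.6-fold and the matricellular protein Ccn2 34.4-fold. The other genes of the 15 were the neuronal adhesion gene Slitrk6 (56.4-fold), the interferon-inducible Ifi202b (45.7-fold) and Clca3a2 (45.3-fold). Chemokine levels varied widely among the 2D arrays: Cxcl2 read 8.59, 13.08, 12.98 and 10.67 in 2D and 4.62, 5.56, 5.67 and 4.51 in tissue (adjusted p = 0.00263), so that replicate 1 was the lowest 2D array yet still above every tissue array.

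The 15 genes furthest above 2D in tissue came from several cell types. Cldn1, a tight junction protein of perineurial and epithelial barriers, read 11.02, 9.99, 9.04 and 10.70 on the tissue arrays and 5.65, 5.01, 4.64 and 4.91 on the 2D arrays. It was 35.1-fold higher in tissue (5.13 ± 0.42 log2 units, adjusted p = 0.000162). Its other probe sets, which were dimmer, were not called (0.065, 0.205 and 0.76, adjusted p = 0.788, 0.324 and 0.0592). Cdh1, the epithelial cadherin, read 8.88, 9.59, 9.65 and 8.90 in tissue and 4.52, 3.55, 5.07 and 3.92 in 2D (31.8-fold, adjusted p = 7.95e-05). Every tissue array was above every 2D array for both genes. Neuronal surface and signalling genes followed, with Tmem255a 23.6-fold, the teneurin Tenm2 19.4-fold, the membrane glycoprotein Gpm6a 18.8-fold, the nicotinic receptor subunit Chrna7 14.3-fold and the G protein subunit Gng4 12.2-fold higher in tissue. The matrix genes Abi3bp and Dpt were 18.3-fold and 13.8-fold higher. Aplnr and Sox17, a receptor and a transcription factor of endothelium, were 17.4-fold and 10.6-fold higher. Chodl (16.5-fold), the kinase gene Stk26 (12.4-fold) and Vwc2 (10.9-fold) were also among the 15. The highest difference of all, that of the skeletal muscle myosin Myh1, rested on 3 of the 4 tissue arrays and is described with the muscle genes. Of these 30 genes, 7 were read by probe sets whose suffix marks probes possibly shared with other transcripts (Ifi202b, Myh1, Gpm6a, Abi3bp, Gng4, Vwc2 and Sox17). In all 30, the mean of the 3D arrays lay nearer to the 2D mean than to the tissue mean.

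**Figure D2:**
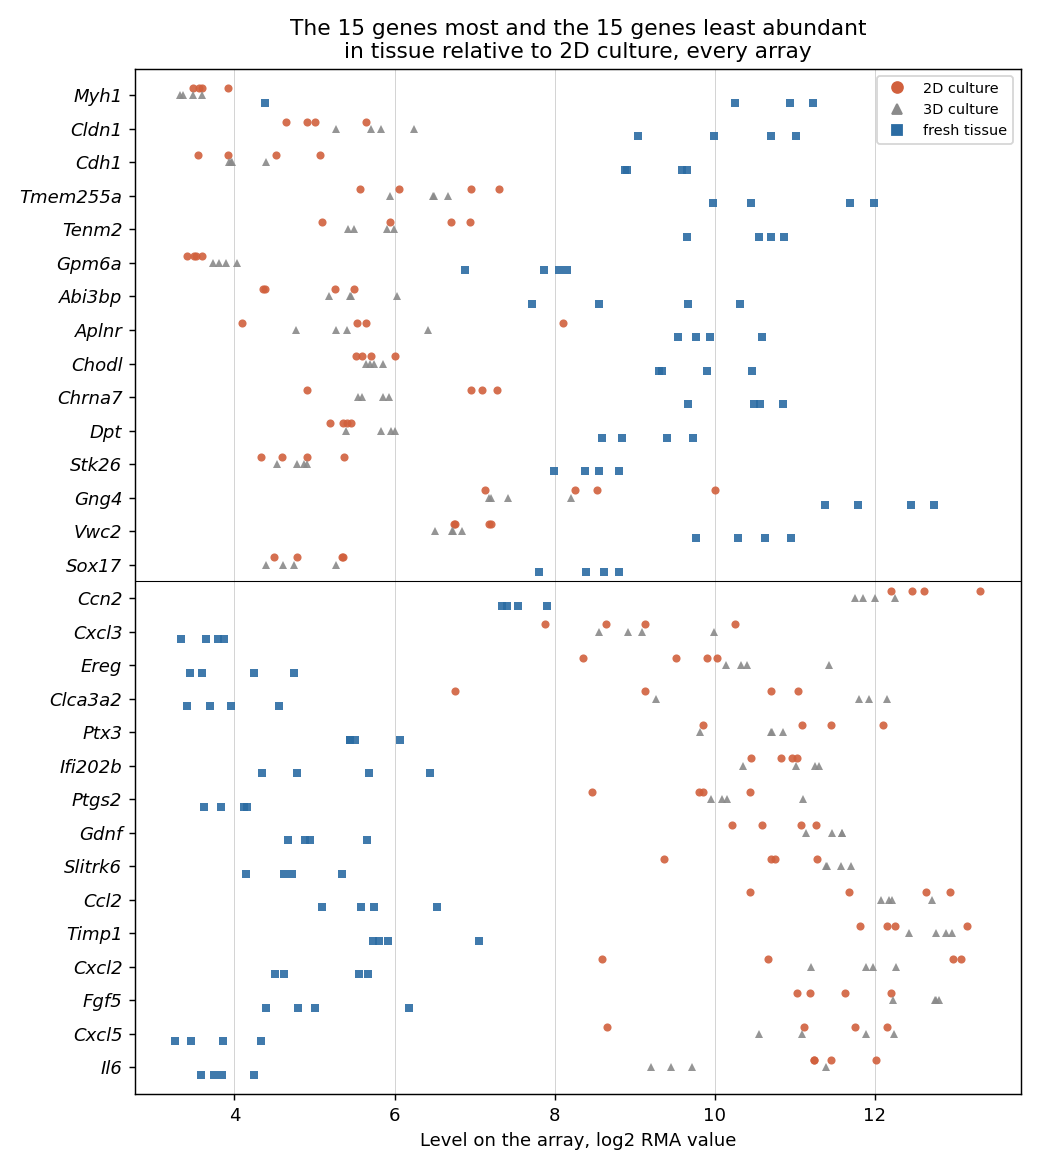
Level of the 15 genes furthest above and the 15 furthest below 2D culture in tissue, as log2 RMA values on the x axis, with 1 point per array (orange circles 2D, grey triangles 3D, blue squares tissue). Tissue and 2D points do not overlap for any of the 30 genes, which was a condition of their choice, and the 3D points lie on the 2D side. Tissue replicate 1 stands apart from the other tissue arrays for Myh1, at 4.38.

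Part of the neuronal genes were higher in tissue, and 1 of the 2D arrays read low for many of them. Of 10 measured genes of noradrenaline synthesis, storage and uptake, 6 were higher in tissue and none lower (60% against 9.87% of all genes), with a median difference of 1.22. Ddc, which decarboxylates the catecholamine precursor, read 13.74, 13.44, 12.90 and 13.68 in tissue and 11.85, 11.37, 11.67 and 8.62 in 2D, 2.56 ± 0.65 log2 units higher in tissue (adjusted p = 0.0246). 2D replicate 4 was far below the other 2D arrays here. The noradrenaline transporter Slc6a2 (1.49 log2 units, adjusted p = 0.0289), the degrading enzyme Maoa (1.18, 0.0288) and the vesicular transporter Slc18a1 (0.74, 0.0147) were also higher in tissue. Th, the rate-limiting enzyme, read 13.06, 12.64, 11.05 and 13.45 in tissue and 11.89, 11.58, 12.44 and 9.59 in 2D, and neither Th (1.18 ± 0.67, adjusted p = 0.215) nor Dbh (0.05 ± 0.63, 0.957) passed the test, although another probe set of Dbh did (0.94, 0.0441). The call of Ddc was lost without tissue replicate 2 (adjusted p = 0.0682), that of Slc6a2 without tissue replicate 1 or 2 or 2D replicate 3 (up to 0.0832), and that of Maoa without tissue replicate 1 or 2 or 2D replicate 2, 3 or 4 (up to 0.0766). The count of 6 was 1 without tissue replicate 2, 3 without tissue replicate 1, 2D replicate 2, 2D replicate 3 or tissue replicates 2 and 3 together, and 4 without 2D replicate 4. The summed level of the list ranged from 13.19 to 15.08 on the 2D arrays and from 15.03 to 16.28 on the tissue arrays.

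Transcription factors of the sympathetic lineage split by gene. Gata2 read 11.25, 11.72, 11.20 and 11.52 in tissue and 9.07, 8.94, 9.48 and 8.40 in 2D, 2.45 ± 0.24 log2 units higher in tissue (adjusted p = 0.000378). Tfap2b (2.25, adjusted p = 0.000907) and Isl1 (2.37, 0.00240), which act in sympathetic neuron formation, were higher in tissue by similar amounts, and their groups did not overlap. Sox4, a factor of immature neurons and proliferating cells, was lower (−1.36 ± 0.29, adjusted p = 0.0125). Hand2 was 0.89 ± 0.28 higher and missed the threshold (adjusted p = 0.0533). Of the 10 factors measured, 4 were higher and 2 lower, and the median was 0.71. The others called were Insm1 (0.53, adjusted p = 0.0302) and Sox11 (−1.42, 0.0301). Without tissue replicate 3 there were 6 higher factors, and on leaving out any array but tissue replicate 3 or 2D replicate 4 only 1 was lower.

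Receptors for the preganglionic transmitter acetylcholine differed by subunit. Chrna7 read 10.49, 10.86, 9.67 and 10.57 in tissue, whereas the 2D arrays read 7.09, 6.96, 7.28 and 4.91 (3.84 ± 0.51 log2 units higher in tissue, adjusted p = 0.00175). Chrna5 was 1.79 ± 0.38 higher (adjusted p = 0.0120). The other, dimmer-on-average probe set of Chrna7 (0.295, adjusted p = 0.292) and that of Chrna5 (0.08, 0.938) were not called. The main ganglionic subunits Chrna3 (1.48 ± 0.53, adjusted p = 0.0745) and Chrnb4 (0.76 ± 0.71, 0.438) did not pass, and neither did Chrna4 (0.73 ± 0.24, 0.0608), although a dimmer probe set was called higher for Chrna3 (1.37, 0.00474) and for Chrna4 (0.65, 0.0394). In all, 2 of 6 subunits were higher and none lower, with a median of 1.12, and 3 were higher without tissue replicate 3, tissue replicate 4 or tissue replicates 2 and 3 together. Of 5 cholinergic enzymes and transporters, Bche, which breaks down choline esters, was higher in tissue (1.52, adjusted p = 0.00438) and the vesicular acetylcholine transporter Slc18a3 was lower (−1.09, 0.0344), a call lost without tissue replicate 2 or 3, or both, or 2D replicate 1 or 2 (adjusted p up to 0.0972 with 1 array left out). Ache (1.41, adjusted p = 0.0901) and Chat (0.29, 0.284) did not pass, and the median was 0.29.

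Most of the voltage-gated channel genes that passed the test were higher in tissue. Of 11 sodium channel genes 7 were higher in tissue and none lower (median 1.45). Scn11a, a subunit of persistent sodium current, read 7.38, 7.97, 7.83 and 7.32 in tissue and 6.19, 6.26, 6.53 and 5.57 in 2D (1.49 ± 0.24, adjusted p = 0.00422). Scn2a (1.49, adjusted p = 0.0202), Scn9a (1.45, 0.0221), the auxiliary subunit Scn3b (1.51, 0.0227) and Scn3a (1.77, 0.0450) were higher as well. The call of Scn3a was lost on leaving out any array but tissue replicate 3 or 2D replicate 1 (adjusted p up to 0.11), those of Scn9a and Scn3b without tissue replicate 2 or 2D replicate 2 (up to 0.0717), and that of Scn2a without tissue replicate 2 (0.0619). Other probe sets were called higher for Scn9a (2.94, 1.86 and 1.77, adjusted p up to 0.0153) and for Scn2a (1.17, 0.0438). The remaining sets of these genes, and the other sets of Scn3a and Scn3b, were not called. The count of 7 was 4 without 2D replicate 4, 2 without 2D replicate 2 and 1 without tissue replicate 2. Among 18 potassium channel genes 6 were higher and 1 lower (median 0.56). The count of 6 was 3 without tissue replicate 2 or 2D replicate 2, and 4 without 2D replicate 1, 2D replicate 4 or tissue replicates 2 and 3 together, and 2 were lower without 2D replicate 3. Kcnd2, which carries A-type current, read 9.38, 9.97, 9.20 and 8.97 in tissue and 7.31, 6.81, 6.59 and 5.57 in 2D (2.81 ± 0.37, adjusted p = 0.00158). Kcnd1 (0.86, adjusted p = 0.0181, and 0.0522 without 2D replicate 2) and Kcna5 (1.74, 0.00563) were higher too. Kcna4 went the other way, at 5.27, 5.07, 5.71 and 5.19 in tissue against 7.45, 7.62, 8.60 and 7.96 in 2D (−2.60 ± 0.26, adjusted p = 0.000477), and Kcnc1 did not pass by its brightest probe set (0.44, 0.0925) but was called higher by 2 of 3 others (1.26 and 0.88). Of 5 pores of non-L-type calcium channels, the T-type pore Cacna1h was lower in tissue (−1.19 ± 0.24, adjusted p = 0.0105) and none was higher. The N-type pore Cacna1b, the main presynaptic calcium pore of sympathetic neurons, read 10.12, 9.74, 8.76 and 10.27 in tissue and 10.32, 9.74, 9.35 and 8.28 in 2D, overlapping groups (0.30 ± 0.46, adjusted p = 0.639). Cacna1a (0.40, adjusted p = 0.240, with another probe set called at 1.30), Cacna1e (0.29, 0.175) and Cacna1g (0.25, 0.356) did not pass, and the median of the 5 was 0.29.

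Synaptic and cytoskeletal genes of neurons differed less evenly. Of 19 genes of synaptic vesicles and release, 9 were higher in tissue and none lower (median 0.75), with 5 higher without tissue replicate 2 or without tissue replicates 2 and 3, and 6 without 2D replicate 1 or 2. Rab3a, a vesicle GTPase, read 12.52, 12.97, 13.02 and 12.58 in tissue and 11.36, 11.26, 11.57 and 11.03 in 2D (1.47 ± 0.18, adjusted p = 0.00130). The complexin Cplx2 (2.18, adjusted p = 0.00527), the calcium sensor Syt1 (2.03, 0.0118), the vesicle protein Sv2a (1.62, 0.00785) and Vamp2 (1.43, 0.0101) were higher. Snap25, a partner of Vamp2 in the fusion complex, was not called (0.21 ± 0.60, adjusted p = 0.804). Among 14 neurofilament and microtubule genes only Stmn3 passed (1.28, adjusted p = 0.0299, median of the list 0.29), and its call was lost without tissue replicate 2 (0.0775) or 2D replicate 2 (0.0622), while 3 members passed without tissue replicate 3 and 2 without tissue replicates 2 and 3. The other probe set of Stmn3 was called higher too (1.30, adjusted p = 0.0274). Prph read 13.33, 12.94, 11.79 and 13.54 in tissue and 13.22, 13.09, 13.05 and 11.41 in 2D, and its groups overlapped (0.21 ± 0.49, adjusted p = 0.765). Tubb3 (0.80, adjusted p = 0.0858), Mapt (1.34, 0.0787) and Nefh (1.43, 0.114) did not pass. On 2D replicate 4, which was the lowest 2D array for Ddc, Chrna7, Rab3a and Prph, the summed level of the synaptic list was 13.6, against 15.1 to 15.2 on the other 2D arrays and 15.4 to 16.1 in tissue. The part of that array's neuronal content in these differences was not tested. Tissue replicate 3 was the lowest tissue array for 12 of 14 neurofilament and microtubule genes, 11 of 19 synaptic genes and 8 of 10 noradrenergic genes. Over all genes it was the lowest for 7589 of 18193. The standard deviation of its values was 1.932, against 2.357 to 2.417 on the 2D arrays. The part of that array in the genes that did not pass was not tested either.

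Called neuropeptide precursors were lower in tissue. Of 11 precursors 3 were lower and none higher (median −0.67), and 2 were lower without tissue replicates 2 and 3. Cartpt, the precursor of the CART peptides of sympathetic neurons, read 6.76, 6.97, 7.42 and 7.09 in tissue and 11.46, 11.59, 10.78 and 10.73 in 2D (−4.08 ± 0.25, adjusted p = 4.19e-05). Sst was lower by a smaller amount (−1.83 ± 0.28, adjusted p = 0.00335). Vip, which axotomised sympathetic neurons are known to induce, was lower with overlapping arrays (−1.05 ± 0.29, adjusted p = 0.0329), and its call was lost on leaving out any of tissue replicates 2, 3 and 4 or 2D replicates 1, 3 and 4 (adjusted p from 0.0520 to 0.0927, leaving 2 or 3 of the list called). Npy, the main peptide of these neurons, was not called (−0.84 ± 0.49, adjusted p = 0.223).

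Injury genes were lower in tissue almost throughout. Of 14 genes of the nerve injury response 12 (85.7%, against 14.3% of all genes) were lower and none was higher, with a median of −3.15. Atf3, the transcription factor that marks axotomised neurons, read 7.83, 7.72, 7.01 and 8.03 in tissue and 12, 12.56, 12.28 and 12.56 in 2D. It was 4.70 ± 0.24 log2 units higher in 2D (adjusted p = 2.10e-05). Tnfrsf12a, the receptor of the cytokine TWEAK, read 7.88, 7.21, 7.18 and 7.79 in tissue and 11.18, 11.54, 10.76 and 11.24 in 2D (−3.67 ± 0.23, adjusted p = 5.71e-05). The phospholipid-binding protein Anxa1 (−3.28, adjusted p = 0.000102) and the growth-associated Sprr1a (−2.15, 0.0109) were also lower. Whichever array was left out, 11 or 12 members were called, and 11 were without tissue replicates 2 and 3.

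Glial growth factors were in part lower as well. Of 6 factors of repair Schwann cells 3 were lower and none higher in tissue (median −2.02). Gdnf, a survival factor for neurons, read 4.67, 4.88, 5.66 and 4.94 in tissue and 10.22, 10.59, 11.08 and 11.27 in 2D (−5.75 ± 0.29, adjusted p = 1.97e-05). Its relative Artn, a ligand that guides sympathetic axons, read 5.52, 5.34, 4.65 and 5.49 in tissue and 9.79, 9.63, 8.72 and 9.24 in 2D (−4.10 ± 0.28, adjusted p = 7.95e-05). Clcf1, a ligand of the CNTF receptor, was lower by 2.50 log2 units (−2.50 ± 0.22, adjusted p = 0.000250), while Olig1 (−1.54 ± 0.69, 0.128) and Shh (0.10 ± 0.25, 0.786) were not called. The receptors were mixed. Of 11 neurotrophic receptors 2 were higher and 2 lower (median 0.19), with the GDNF receptor Gfra1 at −1.68 ± 0.28 (adjusted p = 0.00434) and the cytokine co-receptor Il6st at −1.29 ± 0.27 (0.0126). Ntrk3 was higher in tissue (1.89 ± 0.37, adjusted p = 0.00921) and so was Cntfr (0.78 ± 0.24, 0.0471). The call of Cntfr was lost on leaving out any of 6 arrays (all but tissue replicate 1 and 2D replicate 3), with an adjusted p of up to 0.126, and 1 receptor was higher without tissue replicate 2 or 4 or 2D replicate 2 or 4. Ngfr, the low-affinity neurotrophin receptor, was not called (−0.65 ± 0.39, adjusted p = 0.233), although a dimmer probe set was called lower (−1.31, 0.0137).

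Most immediate early genes, which cells switch on within minutes of a stimulus, were lower in tissue. Of 20 measured, 12 were lower and 1 higher (median −1.80). Fosl2 read 7.91, 7.83, 7.89 and 7.71 in tissue and 11.26, 11.42, 11.53 and 11.90 in 2D (−3.69 ± 0.17, adjusted p = 1.44e-05). Its other probe set, at 7.58 in tissue and 7.97 in 2D on average, was not called (−0.385, adjusted p = 0.494). Fos, which like Fosl2 pairs with Jun proteins in AP-1 dimers, read 9.05, 8.51, 8.38 and 8.51 in tissue and 11.67, 11.68, 13.11 and 11.28 in 2D (−3.32 ± 0.37, adjusted p = 0.000758). Egr2, a factor that also drives myelination, was lower by a wider margin (−4.62 ± 0.42, adjusted p = 0.000269). Ier3 (−2.87, adjusted p = 0.000118) and the growth regulator Myc (−2.28, 0.000257) were lower as well. The 1 gene higher in tissue was the nuclear receptor Nr4a2 (0.55, adjusted p = 0.0339), and none was higher without tissue replicates 2 and 3 or on leaving out any array but tissue replicate 3 or 4. Arc did not pass (0.15 ± 0.29, adjusted p = 0.707).

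Among 25 chemokines and cytokines 12 were lower in tissue and 2 higher, with a median of −1.43. Ccl2 read 5.74, 5.58, 6.53 and 5.09 in tissue and 10.44, 12.94, 12.64 and 11.68 in 2D (−6.19 ± 0.53, adjusted p = 0.000213). Ccl7, a related monocyte chemokine, was lower to a smaller extent (−3.22 ± 0.31, adjusted p = 0.000365), and the neutrophil chemokine Cxcl1 was lower too (−4.12 ± 0.69, 0.00474). The 2 higher in tissue were Il33 (1.90 ± 0.45, adjusted p = 0.0192), an alarmin stored in barrier cell nuclei, and the homeostatic chemokine Cxcl12 (1.28 ± 0.26, 0.00980). The few prostaglandin genes that passed the test went both ways. Ptgs2, which starts prostaglandin synthesis, read 4.12, 4.16, 3.83 and 3.62 in tissue and 8.47, 9.85, 9.81 and 10.44 in 2D (−5.71 ± 0.37, adjusted p = 6.35e-05). Hpgd, which inactivates prostaglandins, was higher in tissue (2.66 ± 0.46, adjusted p = 0.00565), as was the receptor Ptgfr (0.98 ± 0.19, 0.00932). The synthase Ptges was lower (−0.84 ± 0.21, adjusted p = 0.0228), a call lost without tissue replicate 2 or any of 2D replicates 2, 3 and 4 (adjusted p up to 0.0723). In all, 2 of 10 prostaglandin genes were higher and 2 lower (median 0.09), which is 20% each, against 9.87% and 14.3% of all genes. There were 3 higher without 2D replicate 4 and 1 lower without tissue replicates 2 and 3.

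Immune response genes moved in opposite directions by pathway. Of 15 interferon-stimulated genes 10 were lower in tissue and none higher (median −2.21). Ddx58, a sensor of viral RNA, read 8.37, 8.34, 8.17 and 8.31 in tissue and 10.59, 10.83, 10.41 and 10.20 in 2D (−2.21 ± 0.17, adjusted p = 0.000118). Usp18 (−3.33, adjusted p = 0.000653), Bst2 (−2.66, 0.000309), Ifit1 (−2.40, 0.00604) and the regulator Irf7 (−2.28, 0.00258) were lower as well. Antigen presentation divided by class. The class II chain H2-Aa read 10.70, 9.34, 9.95 and 10.04 in tissue and 6.62, 6.68, 6.45 and 7.02 in 2D (3.31 ± 0.27, adjusted p = 0.000175). Its chaperone Cd74 (3.20, adjusted p = 0.00138) and the chains H2-Ab1 (2.21, 0.00526) and H2-Eb1 (1.18, 0.0251) were higher in tissue, that of H2-Eb1 not passing without 2D replicate 1, 2 or 3 (adjusted p up to 0.0694). The class I chain H2-K1, which interferon induces, was lower (−1.30 ± 0.38, adjusted p = 0.0410), and that call was lost on leaving out tissue replicate 2 or any 1 of the 2D arrays (adjusted p from 0.0732 to 0.1). Other probe sets of H2-K1 were called lower (−1.65, adjusted p = 0.0325, and −1.40, 0.00441), and a further set was not called (−0.76, 0.201). The class I light chain B2m was lower too (−1.60, adjusted p = 0.0386). Of the 14 genes of antigen presentation 4 were higher and 2 lower (median −0.36), and none was lower without tissue replicate 2 or 2D replicate 1, 2 or 3 and 1 without 2D replicate 4. Of 13 complement genes 3 were higher and 1 lower (median 0.66), and 5 were higher without tissue replicates 2 and 3. C2 read 9.94, 9.79, 10.04 and 9.90 in tissue and 7.93, 7.91, 8.28 and 8.48 in 2D (1.77 ± 0.17, adjusted p = 0.000343), and C1s1 (2.31, 0.00327) and the complement inhibitor Cd55 (1.71, 0.00752) were higher too. Cfb of the alternative pathway was lower with overlapping arrays (−1.07, adjusted p = 0.0353), a call that with 1 array left out was kept only without tissue replicate 3 or 2D replicate 4 (adjusted p otherwise from 0.0539 to 0.0979).

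**Figure D3:**
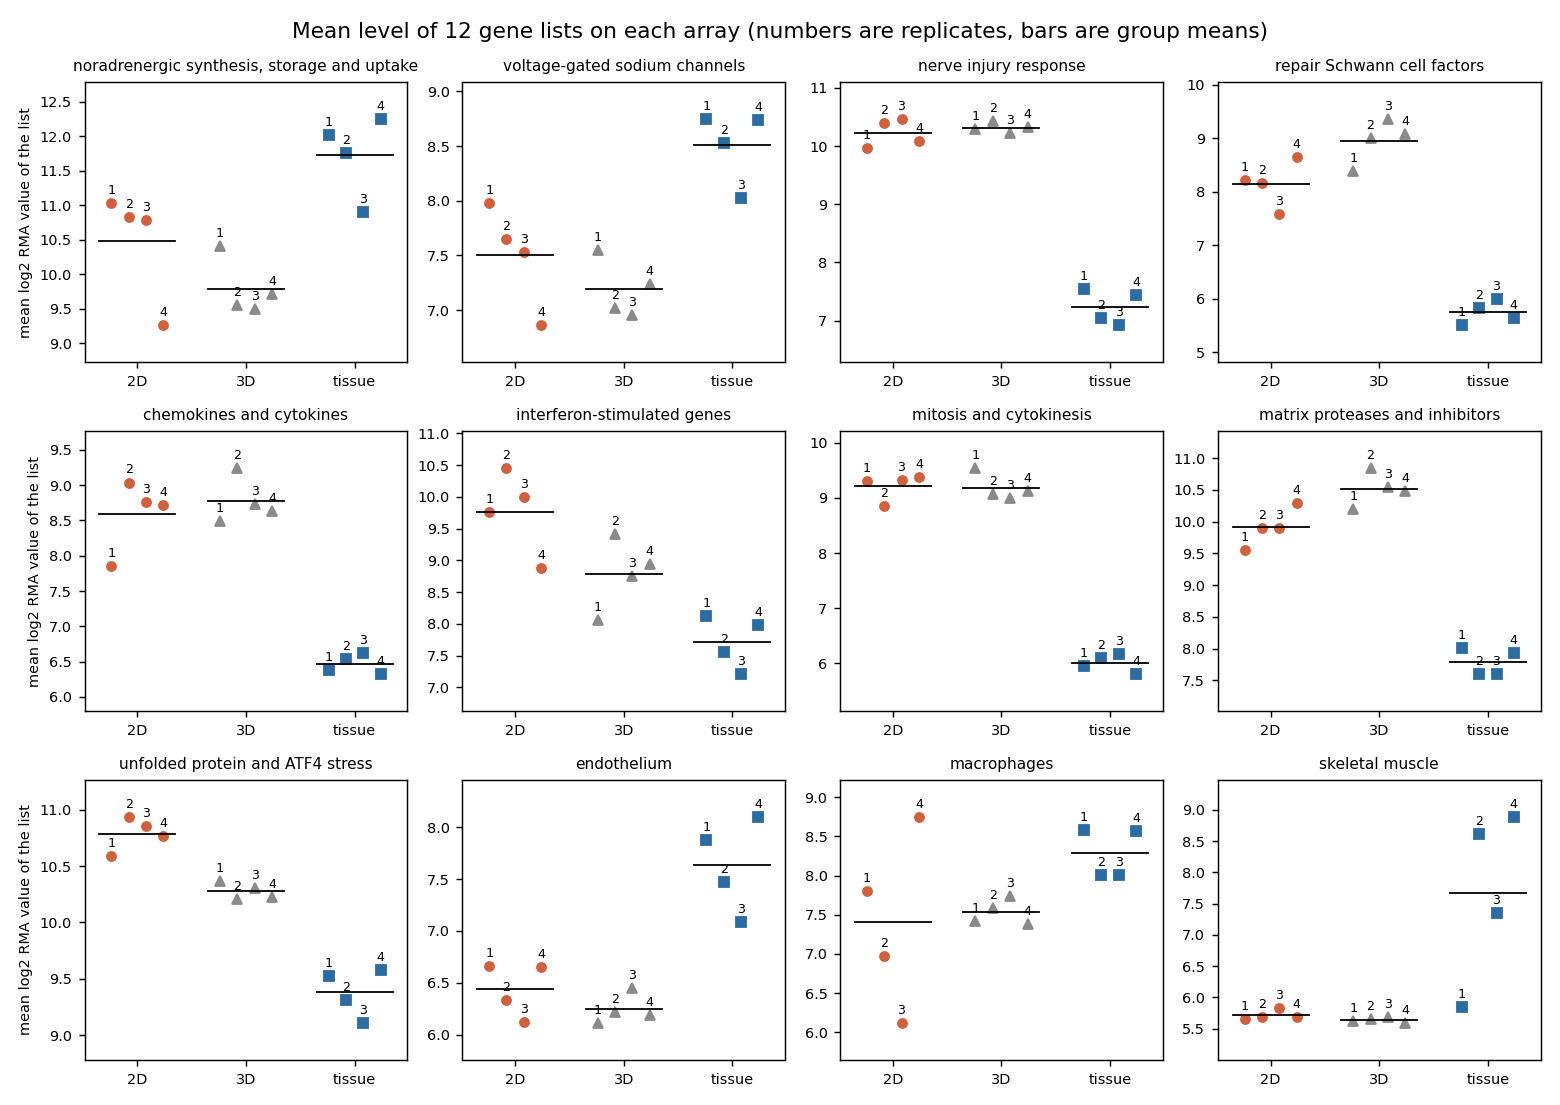
Mean log2 RMA value of the members of 12 gene lists on each array (y axis, scaled per panel, not starting at 0), by group, with the replicate number above each point and a bar at the group mean. The nerve injury, repair Schwann cell, chemokine, interferon, mitosis, protease and unfolded protein lists were lower on all 4 tissue arrays than on every 2D array. 2D replicate 4 was the lowest 2D array for the noradrenergic and sodium channel lists and the highest for macrophages, and tissue replicate 1 lay near the cultures for skeletal muscle.

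Genes of cell division, read by their brightest probe sets, were lower in tissue without exception in the mitotic list. All 24 measured genes of mitosis and cytokinesis were lower (median −3.16, range −4.55 to −1.75), and all 24 were called whichever array was left out and also without tissue replicates 2 and 3. Mki67, the standard marker of cycling cells, read 6.02, 6.57, 7.01 and 5.66 in tissue and 10.52, 10.25, 10.66 and 10.41 in 2D (−4.14 ± 0.28, adjusted p = 7.10e-05). Top2a, which untangles chromosomes, read 5.91, 5.68, 5.32 and 5.36 in tissue and 10.17, 9.78, 10.13 and 9.87 in 2D (−4.42 ± 0.18, adjusted p = 1.11e-05). The mitotic cyclin Ccnb2 read 4.96, 5.08, 5.04 and 4.88 in tissue and 9.27, 8.82, 9.63 and 9.32 in 2D, and the spindle genes Tpx2 (−4.42) and Nusap1 (−3.62) differed by like amounts. Another probe set of Tpx2 was called lower (−2.02, adjusted p = 0.000611), but further sets read higher without a call (1.18, 0.0822, and 1.17, 0.0622). Other sets of Nusap1 (−0.13, adjusted p = 0.553) and Top2a (0.02, 0.957, and 0.15, 0.764) were not called. Of 24 genes of DNA replication 16 were lower and none higher (median −1.499). Tk1, which makes thymidine nucleotides, read 6.01, 6.34, 5.97 and 5.98 in tissue and 8.63, 8.29, 9.55 and 8.87 in 2D (−2.76 ± 0.26, adjusted p = 0.000309). The ribonucleotide reductase subunit Rrm2 (−3.62, adjusted p = 0.00138), the origin factors Cdc45 (−2.11, 0.000571) and Cdc6 (−1.67, 0.00160) and the sliding clamp Pcna (−2.26, 0.0109) were lower. The helicase subunit Mcm2 was not called by its brightest probe set (−0.54 ± 0.33, adjusted p = 0.243), but its other set, at 5.99 in tissue and 8.54 in 2D on average, was called lower (−2.555, 0.000240).

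Promoter letters are shown for the 4 members with the smallest adjusted p that had an entry, among lists in which most members changed one way (Tpx2 had none). They come from RefSeq on the GRCm38.p6 build and give the 250 bases before the annotated start, 5′ to 3′ on the gene's strand. Capitals mark matches, on either strand, to CCAAT (the NF-Y box), TTTGAA or TTCGAA (cell cycle homology regions), ACGTG (core of the hypoxia element), TGACGTCA (cAMP element), the sterol element of the LDL receptor gene and a pair of NF-kB decamers. None of the matches shown overlapped another.
Il6, chr5:30012864-30013113, + strand: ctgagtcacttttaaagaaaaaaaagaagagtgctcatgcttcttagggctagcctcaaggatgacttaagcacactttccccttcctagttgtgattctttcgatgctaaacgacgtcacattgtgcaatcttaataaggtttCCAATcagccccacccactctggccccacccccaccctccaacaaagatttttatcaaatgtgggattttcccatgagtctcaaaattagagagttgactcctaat
Ccnb2, chr9:70421555-70421804, − strand: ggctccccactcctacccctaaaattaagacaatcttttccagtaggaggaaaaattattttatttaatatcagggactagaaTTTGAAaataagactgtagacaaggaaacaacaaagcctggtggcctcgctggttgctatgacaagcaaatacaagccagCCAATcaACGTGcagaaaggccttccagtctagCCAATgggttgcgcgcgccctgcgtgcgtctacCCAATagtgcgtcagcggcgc
Top2a, chr11:99024190-99024439, − strand: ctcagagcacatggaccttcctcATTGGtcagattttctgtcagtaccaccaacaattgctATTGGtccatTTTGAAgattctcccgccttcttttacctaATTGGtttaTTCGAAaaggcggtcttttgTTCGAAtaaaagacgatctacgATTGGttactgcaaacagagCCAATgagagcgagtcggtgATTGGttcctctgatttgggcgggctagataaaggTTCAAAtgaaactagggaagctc
Fosl2, chr5:32136222-32136471, + strand: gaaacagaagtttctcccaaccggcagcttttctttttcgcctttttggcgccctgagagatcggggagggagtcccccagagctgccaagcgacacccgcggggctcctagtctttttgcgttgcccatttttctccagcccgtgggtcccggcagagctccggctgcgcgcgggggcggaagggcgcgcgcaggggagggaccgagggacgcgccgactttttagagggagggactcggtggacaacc
The window of Ccnb2 held 3 CCAAT matches, at 87, 54 and 21 bases before the start, and that of Top2a held 6 CCAAT, 2 TTTGAA and 2 TTCGAA matches. Il6 had 1 CCAAT match and Fosl2 had none of the 8 motifs. Of 20 mitotic list genes with an entry, 16 (80%) held CCAAT, against 34.5% of 27025 genes with a promoter entry, and 8 (40%) held TTTGAA, against 16.3%. CCAAT was not particular to that list: 14 of 20 unfolded protein genes (70%) and 11 of 19 DNA replication genes (57.9%) held it. In the remaining lists searched the CCAAT share was 22.2% to 50%. ACGTG was in 11 of 18 glycolysis and hypoxia genes (61.1%) and in 0% to 40% of the other lists. For the motifs other than CCAAT and TTTGAA, the shares over all genes were 1.34% for TTCGAA, 16.6% for ACGTG, 1.62% for TGACGTCA, 0.0629% for the sterol element, and 0.0851% and 0.13% for the NF-kB decamers. A match is a run of letters and was not tested as a binding site. Other spellings of these elements were not searched, so an unmarked window, as for NF-kB in Il6, does not show that an element is absent.

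Collagen genes that passed the test were lower in tissue, and basement membrane genes were mixed. Of 18 collagen genes 9 were lower and none higher (median −1.51), with 6 lower without tissue replicates 2 and 3, and 5 without tissue replicate 2 or without any of 2D replicates 1, 2 and 4. Col18a1 of the basement membrane zone read 8.97, 7.23, 7.74 and 8.40 in tissue and 12.85, 12.88, 12.67 and 13.06 in 2D (−4.78 ± 0.34, adjusted p = 8.40e-05). The fibrillar chains Col5a1 (−2.24, adjusted p = 0.000518) and Col5a2 (−2.97, 0.00396) and the short-chain Col8a1 (−2.06, 0.00191) were lower. Col1a1 read 12.20, 9.26, 9.01 and 12.71 in tissue and 13.37, 13.28, 12.52 and 14.03 in 2D, with tissue replicates 2 and 3 apart from the other tissue arrays, and was not called (−2.51 ± 0.84, adjusted p = 0.0597). Col4a1 was lower (−1.56 ± 0.38, adjusted p = 0.0212), a call lost without tissue replicate 2 or 2D replicate 1, 2 or 4 (adjusted p up to 0.0656). Its other probe set was called lower (−1.82, adjusted p = 0.0430). Of 12 basement membrane genes 3 were lower and 1 higher (median −0.998), with 5 lower without tissue replicate 1 and 2 lower without tissue replicate 2 or any 1 of the 2D arrays. Agrn, which organises synapses, read 9.88, 9.03, 8.43 and 10.23 in tissue and 12.49, 12.47, 11.96 and 12.40 in 2D (−2.94 ± 0.37, adjusted p = 0.00132), and the vascular laminin chain Lama4 was lower (−1.86, 0.0119). Nid1 (−1.11, adjusted p = 0.0356) was lower and Lama3 (0.79, 0.0381) higher, and both calls were lost on leaving out any 1 of the 2D arrays, that of Nid1 also without tissue replicate 2 and that of Lama3 also without tissue replicate 1 (adjusted p up to 0.102). The other probe sets of Nid1 were called lower (−2.655, adjusted p = 0.0123, and −1.735, 0.00181), and that of Lama3 was not called (0.315, 0.117). Lama2 (−0.47, adjusted p = 0.549) and Lamb1 (−1.07, 0.0611) were not called, and 2 other probe sets of Lamb1 were called in opposite directions (−1.785, 0.0250, and 0.95, 0.0382).

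Enzymes that remodel matrix, and their inhibitors, were lower in tissue as well. Of 21 proteases and inhibitors 14 were lower and none higher (median −2.01), with 10 without tissue replicates 2 and 3, and 9 without tissue replicate 2. Timp1 read 5.92, 5.73, 7.05 and 5.81 in tissue and 11.82, 12.25, 12.15 and 13.15 in 2D (−6.21 ± 0.36, adjusted p = 3.91e-05). The aggrecanases Adamts1 (−3.44, adjusted p = 0.000118) and Adamts4 (−3.84, 0.000425) and the urokinase receptor Plaur (−2.91, 0.000789) were lower. Mmp3 read 5, 5.62, 10.08 and 6.89 on the 2D arrays, was high on replicate 3 alone, and was not called (−2.01 ± 0.93, adjusted p = 0.139). Of 21 integrin and focal adhesion genes 10 were lower and 1 higher (median −0.86), and 6 were lower without tissue replicate 2. Itga5, the fibronectin receptor subunit, read 6.24, 5.49, 6.09 and 6.62 in tissue and 8.61, 9, 9.53 and 10.68 in 2D (−3.35 ± 0.43, adjusted p = 0.00150). The adhesion proteins Zyx (−2.84, adjusted p = 0.00203), Flna (−2.30, 0.00458) and Vcl (−1.15, 0.0136) were lower, Itgav was lower by less (−0.86, 0.00838), and the 1 gene higher was Tns1 (1.25, 0.0322). No integrin or adhesion gene was higher without tissue replicate 1 or 2 or 2D replicate 1 or 2, and 2 were without tissue replicate 3 or tissue replicates 2 and 3. Itgb1 was not called by its brightest probe set (−0.73 ± 0.35, adjusted p = 0.153), and its other sets disagreed, with called differences from −3.35 to 0.63.

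Targets of YAP and TAZ, transcription cofactors that respond to spreading on stiff surfaces, were lower in 10 of 16 cases and higher in none (median −1.37). Ccn2 read 7.54, 7.41, 7.34 and 7.90 in tissue and 12.62, 12.47, 12.20 and 13.32 in 2D (−5.11 ± 0.25, adjusted p = 1.79e-05). Ccn1 read 8.64, 8.48, 9.12 and 8.61 in tissue and 12.18, 11.82, 12.79 and 12.24 in 2D (−3.54 ± 0.23, adjusted p = 6.35e-05). Myof (−3.21, adjusted p = 0.000175) and Gadd45b (−3.40, 0.00296) were lower too. The count fell to 5 without tissue replicates 2 and 3, without tissue replicate 2 and without 2D replicate 1. Caveolar and raft genes showed no common direction on all arrays of the comparison, with 1 of 10 higher and 1 lower (median −0.02). There were 3 higher without tissue replicate 3 and 2 higher without 2D replicate 4 or tissue replicates 2 and 3. The median was 0.50 without tissue replicates 2 and 3, and tissue replicate 3 was the lowest tissue array for all 10 genes. Cavin3 was lower (−2.77 ± 0.50, adjusted p = 0.00664), Flot2 was higher (1.06 ± 0.20, 0.00727), and Cav1 (1.27 ± 0.42, 0.0568) and Cavin1 (−0.49 ± 0.24, 0.155) were not called, although a dimmer probe set of Cavin1 was (adjusted p = 0.0301).

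Most stress genes were lower in tissue. Of 22 genes of the unfolded protein response and ATF4 pathway 17 were lower and none higher (median −1.40). Chac1, a glutathione-degrading ATF4 target, read 8.08, 8.18, 7.87 and 8.62 in tissue and 10.86, 11.32, 11.19 and 10.64 in 2D (−2.81 ± 0.22, adjusted p = 0.000119). The amino acid transporter Slc7a5 read 9.61, 9.66, 9.52 and 9.57 in tissue and 10.84, 11.01, 11.16 and 10.93 in 2D, a smaller difference with little spread (−1.40 ± 0.13, adjusted p = 0.000338). Atf4 itself (−1.33, adjusted p = 0.000661), Creld2 (−2.04, 0.000814) and Ddit3 (−2.06, 0.00885) were lower. Other probe sets of Atf4 were not called (0.055, adjusted p = 0.940, and −0.11, 0.675). The first of these was bright, at 11.21 in tissue and 11.15 in 2D on average. The chaperone Hspa5 was lower (−1.35 ± 0.34, adjusted p = 0.0236), and lost its call without tissue replicate 2 or 2D replicate 1, 2 or 4 (adjusted p up to 0.0668). Another probe set, at 10.42 in tissue and 12.28 in 2D on average, was called lower (−1.86, adjusted p = 0.00231). A dimmer set was called higher (0.61, adjusted p = 0.0407). NRF2 targets and metallothioneins were lower in 8 of 12 cases and higher in none (median −1.86). Hmox1, which degrades haem, read 6.35, 5.42, 5.71 and 6.47 in tissue and 9.93, 11.72, 7.59 and 11.35 in 2D (−4.16 ± 0.80, adjusted p = 0.00840). Mt2 (−2.33, adjusted p = 0.00537), Srxn1 (−1.94, 0.0185, but 0.0599 without tissue replicate 2 and 0.0532 without 2D replicate 2) and Txnrd1 (−1.34, 0.0126) were lower, and Mt1 was not called (−1.17, 0.0550). Other probe sets of Srxn1 were called lower (−1.74, adjusted p = 0.0234, and −1.355, 0.0236), and a further set was not called (−0.23, 0.343). The 8 calls were 2 without tissue replicates 2 and 3, 3 without tissue replicate 2 or 2D replicate 2, and 5 without 2D replicate 3 or 4.

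Metabolic genes divided by pathway. Of 19 genes of glycolysis and the hypoxia response 10 were lower in tissue and none higher (median −0.96). Hk2, the inducible hexokinase, read 6.52, 6.97, 7.16 and 6.85 in tissue and 9.70, 10.54, 11.08 and 9.71 in 2D (−3.38 ± 0.32, adjusted p = 0.000325). Stc2 (−2.85, adjusted p = 0.000328), the glycolytic regulator Pfkfb3 (−2.66, 0.00225) and the collagen hydroxylase P4ha1 (−3.64, 0.00403) were lower. The glucose transporter Slc2a1 was lower as well (−1.24 ± 0.30, adjusted p = 0.0202), and its call was lost without tissue replicate 2 (0.0587), without 2D replicate 2 (0.0635) and under both other scalings. Its other probe sets were called lower (−1.915, adjusted p = 0.0135, and −2.50, 0.0209). No gene of 18 for cholesterol and fatty acid synthesis was called (median 0.11), by limma at the adjusted threshold, and 1 had an unadjusted p under 0.05. Hmgcs1 (0.67, adjusted p = 0.133), Fdft1 (0.85, 0.148), Nsdhl (−0.82, 0.159) and Acaca (0.49, 0.109) were the members with the smallest p or the defining ones. Of 18 respiratory chain genes 4 were higher and none lower (median 0.25), with 7 higher without tissue replicates 2 and 3 and 6 without tissue replicate 3. Among them, Cox8b and Cox7a1 are the heart and skeletal muscle isoforms. Cox8b read 6.90, 8.82, 8.77 and 9.62 in tissue and 5.62, 5.70, 6.19 and 5.86 in 2D (2.69 ± 0.50, adjusted p = 0.00721), and Cox7a1 was 1.82 ± 0.33 higher (0.00678). Ndufb8 was higher (1.03, adjusted p = 0.00275) by its brightest probe set and at −0.97 by its most variable one. Atp5a1 (0.44, adjusted p = 0.0476) likewise read −0.86 by its most variable set, and lost its call on leaving out any array but tissue replicate 3 (adjusted p up to 0.127). The ubiquitous subunits Cox4i1 (0.17, adjusted p = 0.481) and Ndufa4 (0.28, 0.600) were not called. Of 17 clock genes 2 were higher and 5 lower (median −0.45), and 3 were lower without tissue replicate 2, 2D replicate 2, 2D replicate 4 or tissue replicates 2 and 3 together. Arntl, the BMAL1 gene, read 7.45, 6.77, 6.04 and 7.74 in tissue and 8.66, 9.24, 9.69 and 9.23 in 2D (−2.20 ± 0.37, adjusted p = 0.00497), and Cry1 was lower (−1.26, 0.00281). Bhlhe40 (−1.64, adjusted p = 0.00832), Ciart (−0.96, 0.0291) and Clock (−1.05, 0.0443) were the other lower genes. The output factors Hlf (1.32, adjusted p = 0.00402) and Tef (0.72, 0.00598) were higher in tissue, and Per1 was not called (0.26, 0.431).

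**Figure D4:**
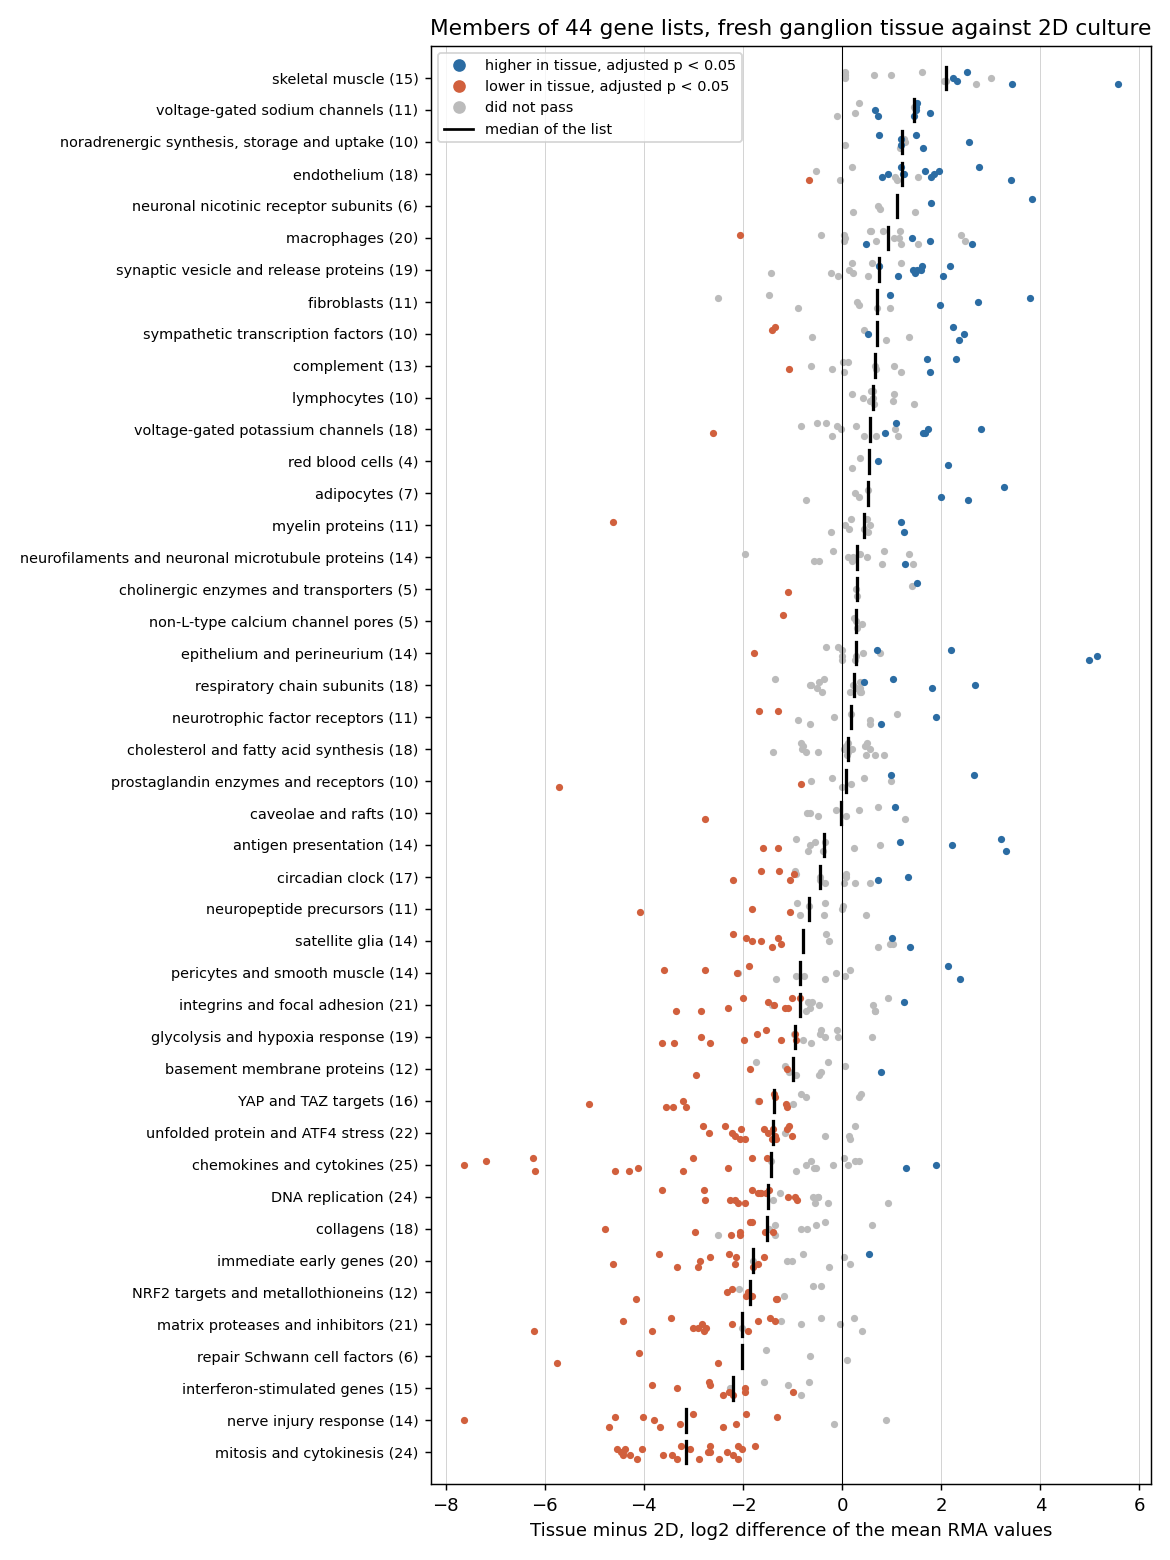
Tissue minus 2D log2 difference (x axis) of every measured member of 44 gene lists, sorted by the median of the list (black bar), with the number of members in parentheses. Blue points were higher and orange points lower in tissue at an adjusted p under 0.05, and grey points did not pass. The mitotic list (median −3.16) and the nerve injury list (−3.15) lie furthest left, and the skeletal muscle list (2.10) furthest right.

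Markers of satellite glia divided. Of 14 measured, 7 were lower and 2 higher in tissue (median −0.78). Sox2, a factor of glial precursors, read 9.52, 9.53, 9.72 and 9.56 in tissue and 11.76, 11.65, 11.69 and 12.07 in 2D (−2.21 ± 0.15, adjusted p = 6.47e-05). Foxd3 (−1.94, adjusted p = 0.000518) and the gap junction gene Gja1 (−1.82, 0.00478) were lower. The glutamate transporter Slc1a3 was higher in tissue (1.01 ± 0.15, adjusted p = 0.00314), as was glutamine synthetase, Glul (1.38, 0.00528). The defining markers Fabp7 (0.72 ± 0.29, adjusted p = 0.101) and Kcnj10 (0.97 ± 0.35, 0.0753) were not called. The count of 7 was 4 without tissue replicate 2, 2D replicate 1 or 2D replicate 4, and the count of 2 was 4 without tissue replicate 3 or tissue replicates 2 and 3, and 3 without 2D replicate 1. Of 11 myelin genes 2 were higher and 1, the Egr2 described above, lower (median 0.44), and 4 were higher without tissue replicates 2 and 3. The lipid hydroxylase Fa2h read 7.68, 7.40, 7.55 and 7.50 in tissue and 6.24, 6.44, 6.62 and 6.10 in 2D (1.18 ± 0.16, adjusted p = 0.00177). Mbp was higher with overlapping arrays (1.25 ± 0.37, adjusted p = 0.0422), and the call was lost without any of tissue replicates 1, 2 and 4 or 2D replicates 2, 3 and 4 (adjusted p up to 0.103), which left 1 myelin gene higher. Other, dimmer probe sets of Mbp were called higher at 2.245, 2.36, 2.40 and 0.74 (adjusted p up to 0.00922). Further sets were not called, at 1.07, 0.675 and 0.12 (adjusted p from 0.0740 to 0.755). Drp2 was not called by its brightest probe set (0.44, adjusted p = 0.0877) but was by another (0.96, 0.00503).

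Most vessel markers were higher in tissue. Of 18 endothelial genes 11 were higher and 1 lower (61.1% higher, median 1.20), and 14 were higher without tissue replicates 2 and 3. Sox17 read 8.80, 8.39, 7.80 and 8.62 in tissue and 5.36, 4.78, 4.49 and 5.34 in 2D (3.41 ± 0.28, adjusted p = 0.000162). The tight junction gene Cldn5 read 6.80, 6.98, 7.28 and 7.08 in tissue and 5.50, 5, 5.15 and 5.33 in 2D (1.79 ± 0.17, adjusted p = 0.000325). Plvap (1.86, adjusted p = 0.00146) and Esam (1.24, 0.00130) were higher. The defining markers Cdh5 (1.52 ± 0.51, adjusted p = 0.0608) and Pecam1 (1.10 ± 0.47, 0.113) overlapped between groups and were not called, and Eng was the 1 gene lower (−0.66, adjusted p = 0.0374), with none lower without tissue replicates 2 and 3 or on leaving out any array but tissue replicate 1 or 4 or 2D replicate 3. Mural cell genes divided too, with 2 of 14 pericyte and smooth muscle genes higher and 4 lower (median −0.85). Rgs5, a pericyte marker, read 11.45, 11.93, 11.94 and 11.67 in tissue and 9.66, 9.13, 8.96 and 9.69 in 2D (2.39 ± 0.21, adjusted p = 0.000257), and the channel regulator Abcc9 was 2.14 higher (0.00319). Acta2, the smooth muscle actin of contractile cells and myofibroblasts, read 10.42, 10.06, 10.27 and 10.71 in tissue and 13.21, 13.08, 12.56 and 13.70 in 2D (−2.77 ± 0.25, adjusted p = 0.000263). Pdgfrb (−2.12, adjusted p = 0.00123) and the contractile genes Actg2 (−3.60, 0.00444) and Tagln (−1.88, 0.0418) were lower, and Myh11 was not called (−0.94, 0.151).

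Connective tissue and barrier markers were in part higher in tissue. Of 11 fibroblast genes 4 were higher and none lower (median 0.71), and 2 were lower without tissue replicate 1 or 4. Dpt read 9.73, 8.59, 8.84 and 9.40 in tissue and 5.36, 5.41, 5.20 and 5.46 in 2D (3.78 ± 0.25, adjusted p = 6.35e-05). The small proteoglycans Lum (2.73, adjusted p = 0.00634) and Dcn (1.98, 0.00409) and the actin-severing Gsn (0.96, 0.0103) were higher, and Pdgfra was not called (0.97, 0.133). Of 14 epithelial and perineurial genes 4 were higher and 1 lower (median 0.28), led by Cldn1 and Cdh1. Lypd2 (2.20 ± 0.29, adjusted p = 0.00169) and the tight junction gene Ocln (0.71, 0.0464) were higher. Krt19 was lower (−1.77 ± 0.49, adjusted p = 0.0345) with overlapping arrays, and the call was lost without tissue replicate 2 or 3, or both, or 2D replicate 2, 3 or 4 (adjusted p up to 0.0946 with 1 array left out).

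Immune cell markers were unevenly represented. Of 20 macrophage genes 4 were higher and 1 lower in tissue (median 0.93). The count of 4 was 8 without 2D replicate 4 and 2 without tissue replicate 2 or 2D replicate 1, 2 or 3, and 2 were lower without 2D replicate 3. Cx3cr1 read 8.13, 7.65, 7.60 and 8.11 in tissue and 6.30, 6.23, 6.23 and 7.05 in 2D (1.42 ± 0.23, adjusted p = 0.00433), and the scavenger receptor Cd163 was 1.76 higher (0.0110). Laptm5 (2.63, adjusted p = 0.0258) and Fcgr1 (0.48, 0.0444) were the others, that of Laptm5 with overlapping arrays and lost without tissue replicate 2 or 3 or 2D replicate 1, 2 or 3 (adjusted p from 0.0502 to 0.081). Another probe set of Laptm5 was called higher (1.19, adjusted p = 0.0338), and its remaining sets were not called. Cd68, a lysosomal protein of phagocytes, was lower (−2.06 ± 0.45, adjusted p = 0.0136) and was not called without tissue replicates 2 and 3. Csf1r read 11.58, 10.46, 9.92 and 11.83 in tissue and 9.27, 8.40, 9.15 and 10.83 in 2D and was not called (1.53 ± 0.57, adjusted p = 0.0804). The summed macrophage level spanned 10.97 to 14.23 on the 2D arrays and 13.15 to 13.69 on the tissue arrays. None of 10 lymphocyte genes was called by limma (median 0.63), although 5 had an unadjusted p under 0.05, and 4 were called higher without tissue replicate 1 or 4 and 1 without tissue replicate 3. Ms4a1, the B cell marker CD20, read 5.56, 7.99, 6.90 and 5.30 in tissue and 5, 5.11, 4.84 and 5.02 in 2D (1.45 ± 0.53, adjusted p = 0.0765), highest on tissue replicates 2 and 3. Cd3e (0.64, adjusted p = 0.0505), Cd3d (1.05, 0.0638), Cd8a (1.03, 0.0502) and Cd79a (0.57, 0.286) were not called, but another probe set of Cd8a was higher (1.91, 0.0270).

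Transcripts of skeletal muscle, fat and red cells were higher on some or all tissue arrays. Of 15 skeletal muscle genes 5 were higher in tissue and none lower (median 2.10). Myh1 read 4.38, 11.23, 10.94 and 10.26 on tissue replicates 1 to 4 and 3.48, 3.60, 3.92 and 3.56 in 2D (5.56 ± 1.33, adjusted p = 0.0198). Its call was lost without tissue replicate 2 or 2D replicate 1, 2 or 4 (adjusted p up to 0.0641). Another probe set of Myh1 was called higher (5.84, adjusted p = 0.00648), and a further set was not called (0.12, 0.777). The muscle actin Acta1 read 5.31, 8.98, 6.31 and 10.63 in tissue and 5.51, 5.73, 5.75 and 5.98 in 2D (2.06 ± 1.004, adjusted p = 0.155). Tissue replicate 1 was at the level of the cultures for Acta1, Tnnc2 (4.24 against 4.11 to 4.35) and Tnni2 (6.06 against 5.99 to 6.16). Tnnc2 (3.42, adjusted p = 0.0346) and Tnni2 (2.24, 0.0386) were called, and both calls were lost on leaving out any array but tissue replicate 1 (adjusted p up to 0.102). The calcium store protein Casq1 was higher on all 4 (2.53 ± 0.53, adjusted p = 0.0120), and the calcium pump Atp2a1 was called as well (2.31, 0.0393). The summed level of the muscle list ranged from 11.9 to 13.6 in tissue and from 10.5 to 11.5 in 2D, and 1 member was called without tissue replicates 2 and 3, without tissue replicate 2, and without 2D replicate 1, 2 or 4, against 2 without tissue replicate 3 or 4 or 2D replicate 3 and 10 without tissue replicate 1. Of 7 adipocyte genes 3 were higher and none lower (median 0.52). Adipoq read 6.50, 5.50, 5.92 and 8.25 in tissue and 3.78, 3.98, 4.29 and 3.96 in 2D (2.54 ± 0.51, adjusted p = 0.0105). The fatty acid carrier Fabp4, which capillaries also express, was 3.27 higher (adjusted p = 0.000676) and the brown fat gene Ucp1 was 1.99 higher (0.0126), while Pparg was not called (−0.72, 0.0833). Of 4 red cell genes 2 were higher (median 0.55). Alas2 read 6.89, 6.57, 6.79 and 7.79 in tissue and 4.77, 4.88, 4.78 and 5.08 in 2D (2.13 ± 0.26, adjusted p = 0.00108), Slc4a1 was 0.73 higher (0.0116), and Hba-a1 (0.21, 0.447) and Epb42 (0.37, 0.209) were not called. The part of muscle, fat and blood in the differences of other genes was not tested.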

How the data were processed

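Total RNA was labelled and hybridised to 12 Affymetrix arrays, 1 per sample, 8 of which were used here. Per the submitters' processing notes the authors summarised the scans with Affymetrix Expression Console by RMA (background correction, quantile normalisation and probe set summary), and the deposited table holds these values on the log2 scale for 45101 probe sets. RMA gives no detection call and compresses differences of dim probe sets. Precision is limited by how many arrays there are. The 64 control probe sets were set aside. Of 45037 others, 34945 carried 1 gene symbol, 932 several and 9160 none, and 34741 matched a current RefSeq gene.

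Tissue and 2D arrays were compared by moderated linear models without covariates (limma 3.58.1, R 4.3.3). Adjusted p-values are those of Benjamini and Hochberg, taken across the 45037 probe sets, and calls are at 0.05. The methods' own test was Student's, run as an alternative. Nothing in the labels says whether replicates came from separate litters or cultures, so p-values measure the spread between these samples. The fit was tested on simulated data. No 2 arrays held identical values. Replicate numbers were checked for pairing: the deviations of same-numbered arrays from their group means correlated at 0.349, −0.066, 0.208 and −0.067, so the numbers were not taken to pair the samples.

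The 44 gene lists (682 entries, 627 measured, the rest not analysed here) and the comparison itself were chosen with earlier results of these data known. Named genes are the 15 highest and 15 lowest differences among called genes with separate arrays, the 4 members of each list with the smallest adjusted p, and the defining members, 235 genes in all. Insm1, Sox11, Glul, Fcgr1, Eng, Actg2, Tagln, Atp2a1, Ocln, Nr4a2, Il33, Cxcl12, B2m, Tns1, Bhlhe40, Ciart and Clock complete small counts and were chosen after their values were seen. A list's summed level is the log2 of its summed linear values on an array.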

Additional observations from a re-analysis of the deposited data

Results flagged for a closer look

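Single arrays stood apart from the other 3 of their group, by a gap beyond the critical value of Dixon's test for 4 values, in 34 of 558 groups examined, and chance alone gives about 1 group in 20. 2D replicate 4 accounted for 15 low and 4 high values. It was low for the neuronal genes Ddc (8.62, against 11.37 to 11.85 on the other 2D arrays), Chrna7 (4.91), Chrnb4 (7.91), Ache (7.61), Syt1 (9.85), Sv2a (8.02) and Prph (11.41), for the interferon-stimulated Bst2 (9.64) and Ifit1 (9.56), for the sterol gene Nsdhl (10.41) and for the clock factor Tef (10.20). Its summed levels were also low for the noradrenergic list (13.19, against 14.81 to 15.08), the synaptic list (13.63), the cholesterol and fatty acid list (14.89) and the epithelial and perineurial list (10.74). The gaps were small for Tef (10.30 to 10.32 on the other 2D arrays) and for the epithelial and perineurial list (10.82 on the others). 2D replicate 4 was high for Cav1 (11.35), the macrophage receptor Cx3cr1 (7.05), the class II chaperone Cd74 (7.86) and the summed YAP and TAZ targets (15.06).

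2D replicate 3 was low for Agrn (11.96), Itgb1 (10.80), the basement membrane linker Nid1 (12.58), Olig1 (4.81) and the summed basement membrane list (14.37), and high for Ucp1 (5.21). Among the tissue arrays, replicate 1 was low for Myh1 (4.38, against 10.26 to 11.23) and high for Ptx3 (6.07) and the summed chemokines and cytokines (12.06). Replicate 2 was high for Tk1 (6.34). Replicate 3 was high for Timp1 (7.05) and Esam (8.96) and low for Slc6a2 (13.41) and the summed neurotrophic receptors (13.80), and replicate 4 was high for Kcnd1 (8.80).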

How the results depend on the processing

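Over 23 alternatives, of which leaving out tissue replicates 2 and 3 was chosen after seeing the data, the counts of 1796 higher and 2597 lower genes moved more than their directions. They rose to 3267 and 3905 with all 12 arrays in 1 fit. The higher count alone passed 1.5 times its value with array quality weights (3038), with centring on bright probe sets (3021, against 1882 lower) and with the methods' t-test without adjustment (3130), and was 916 at 2-fold or more. With adjustment the methods' t-test called 1111 and 1557. Leaving out 1 array gave 868 to 2070 and 1475 to 3142. Tissue replicate 1 alone against 2D, assumed to vary like the 2D arrays, gave 339 and 551, and tissue replicates 1 and 3 gave 464 and 993, with fewer samples. With the replicate block the counts were 1600 and 2643. Between numbers that were not shown to pair the arrays, 8 of 179 called named genes missed the threshold under that replicate block. After cyclic loess 2608 and 2378 genes were called. Of the 179, 150 kept their call whichever single array was left out, and 173 and 174 kept it with centring and cyclic loess. Among the named genes, signs turned for Atp5a1 (−0.86, adjusted p = 0.227) and Ndufb8 (−0.97, 0.101) when the most variable probe set was read, both without a call. Over all genes, 164 of the 4393 calls changed sign with that choice, and 88 with the mean of a gene's probe sets. With the most variable set 4086 calls were shared, of which 4038 had the same direction. Tnni2 came to 0.00 with tissue replicate 1 alone. The cause was not tested. No lymphocyte or cholesterol gene was called by the adjusted t-test of the methods, and 2 and 1 were with the replicate block. Probe sets near the lower end of the signal have compressed differences, so folds of dim genes are likely understated.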
